A study of Mus musculus with 12 samples.

Results

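Mouse embryonic stem cells (ESCs) lacking HP1β were compared with ESCs lacking HP1α, on 2 arrays of each, taken from a series of 12 arrays. The 4 arrays were chosen by their labels and not by any measured value. The cells lacked Cbx1, which encodes HP1β (HP1βKO), or Cbx5, which encodes HP1α (HP1αKO), and the labels give line R1 for both. The 2 WT ESC arrays, labelled as line HM1, were read alongside, and embryoid bodies (EBs) of the same genotypes at day 7 served for the comparison between states. No treatment was given to any group. The ESCs were grown with leukaemia inhibitory factor (LIF) on gelatin and mitomycin-C treated fibroblast feeders and sorted with magnetic beads for SSEA1, a surface sugar of pluripotent cells, whereas EBs grew in suspension without LIF. The labels do not say how many knockout clones the arrays represent. Of 19938 genes with a single symbol, 9943 had a signal above 45 (log2 5.49, the floor) on at least 1 of the 4 knockout ESC arrays, and these were tested. All values below are log2 signals of the robust multi-array average (RMA) or differences of such signals, HP1βKO minus HP1αKO, given with the standard error from limma (n = 2 arrays in each group).

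HP1α and HP1β are close relatives: each reads methylated lysine 9 of histone H3 through a chromodomain and binds partner proteins through a chromoshadow domain. Another member, HP1γ, is encoded by Cbx3. ESCs in serum and LIF move between a naive state, held by LIF signalling and factors such as Esrrb, Tfcp2l1 and Klf4, and a formative state closer to the epiblast after implantation, marked by Fgf5, Otx2 and Dnmt3b. Cells that leave pluripotency switch on genes of the primitive streak, endoderm or neural lineage. The comparison asks which transcripts differ between the absence of one HP1 protein and the absence of the other while the cells are kept as ESCs.

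The targeted genes were read first. Cbx1 lay at 7.59 and 7.99 in the 2 HP1βKO arrays, at 10.05 and 9.63 in the HP1αKO arrays, and at 9.45 and 10.01 in WT, so that both HP1βKO arrays were below all 4 others (difference −2.05 ± 0.28). Cbx5 lay at 8.04 in the array labelled HP1αKO 1 but at 9.99 in the array labelled HP1αKO 2, against 9.72 and 9.88 in HP1βKO. The Cbx5 level of the array labelled HP1αKO 2 thus opposed its label, and that of WT 2, at 8.29, was close to that of HP1αKO 1 while WT 1 stood at 9.66. Where the array features lie relative to the deleted parts was not checked. Cbx3 lay between 11.25 and 11.37 in all 4 knockout arrays.

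Hprt, which encodes the purine salvage enzyme HPRT, and Meg3, a maternally expressed imprinted long RNA, divided the arrays in the same way. Hprt lay at 8.40 in HP1αKO 1 and 8.84 in WT 2, at 6.48 in WT 1, and at 4.25, 4.66 and 4.56 in HP1αKO 2 and the HP1βKO arrays, all 3 below the floor. Meg3 lay at 5.28 in HP1αKO 1 and 5.62 in WT 2, against 9.36 in HP1αKO 2, 9.37 and 9.52 in HP1βKO and 8.93 in WT 1. HP1αKO 1 and WT 2 therefore shared low Cbx5, high Hprt and low Meg3, whereas HP1αKO 2 shared its Cbx5, Hprt and Meg3 levels with the HP1βKO arrays. In EBs both HP1αKO arrays had the pattern of HP1αKO 1, with Cbx5 at 9.20 and 9.21 against 10.26 and 10.31 in HP1βKO, Hprt at 6.28 and 6.84 against 3.83 and 4.12, and Meg3 at 6.27 and 5.61 against 10.00 and 10.32. The value of each HP1αKO array is therefore given for the genes named below, and the lists with the widest shifts are also given against HP1αKO 1 alone.

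**Figure D1:**
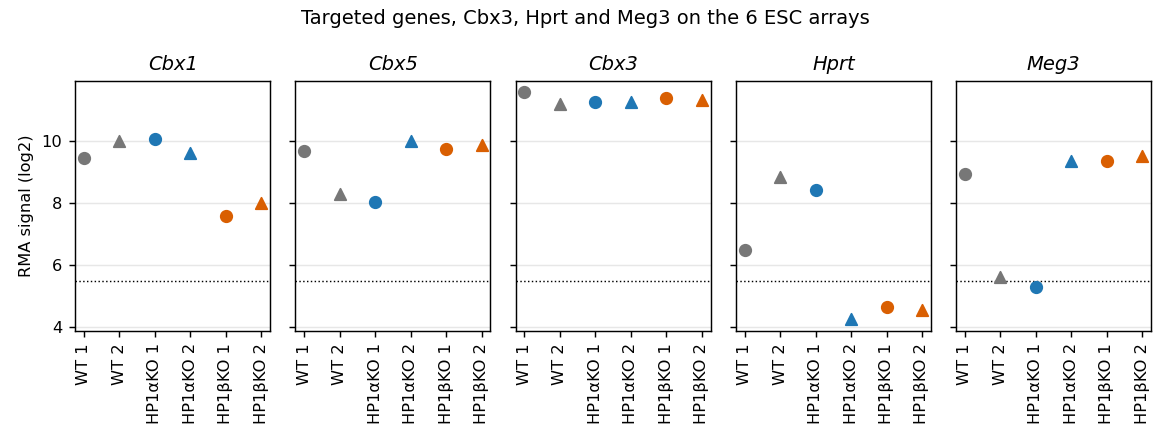
RMA signal (log2, vertical axis) of Cbx1, Cbx5, Cbx3, Hprt and Meg3 on each of the 6 ESC arrays (circles replicate 1, triangles replicate 2; grey WT, blue HP1αKO, orange HP1βKO; dotted line the floor of 5.49). Cbx1 was low on both HP1βKO arrays, while Cbx5, Hprt and Meg3 set HP1αKO 1 and WT 2 apart from the rest.

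The 4 arrays had medians between 7.30 and 7.46 over the genes tested, and 92.3% to 93.5% of these genes lay above the floor on each. Replicates of a genotype were no more alike than arrays of different genotype: the correlation over genes was 0.946 between the HP1αKO arrays and 0.966 between the HP1βKO arrays, against 0.935 to 0.973 between arrays of different knockouts. These correlations are over genes, which are not independent replicates. The mean levels of feeder markers and of small nucleolar RNAs moved with the replicate number, though not every feeder marker did. Feeder fibroblast markers averaged 7.40, 6.92 and 6.64 in replicate 1 of WT, HP1αKO and HP1βKO and 5.78, 5.95 and 5.97 in replicate 2, and small nucleolar RNAs averaged 6.84, 7.07 and 7.13 in replicate 1 and 8.08, 7.84 and 8.07 in replicate 2. Among the feeder markers the collagen gene Col1a2 lay at 8.30 and 5.77 in HP1αKO and 7.71 and 5.89 in HP1βKO. Lox, which crosslinks collagen, lay at 5.99 and 3.31 and at 4.92 and 3.58, whereas Col5a1 lay between 6.12 and 6.43 on all 4. Fn1 was higher in replicate 2, at 10.32 and 10.72 in HP1αKO and 9.65 and 10.17 in HP1βKO. Mmp2 rose from 7.51 to 8.16 in HP1αKO and fell from 8.11 to 7.67 in HP1βKO. The part of these differences in the results below was not tested. Fewer cells of a type and less RNA per cell cannot be told apart in such bulk samples. The ESC identity of the arrays was checked on marker genes. Pou5f1, Sox2 and Nanog lay at 10.41 or above on every knockout ESC array. Esrrb, Zfp42 and Fgf4 were lower but above the floor on these arrays, between 7.76 for Fgf4 and 9.73 for Zfp42. Fut4, another marker, lay under the floor on every ESC array and gave this check no support.

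No gene passed the test between the knockouts on the 6 ESC arrays. In limma, without the replicate number as a block, 0 of 9943 genes (0%) had a Benjamini-Hochberg adjusted p under 0.05, and the lowest adjusted p was 1.00. The unadjusted p was under 0.05 for 147 genes, 1.48% of those tested. A fit of all 12 arrays, which borrows the smaller spread of the EBs, called Cbx1 alone (adjusted p = 0.0445). What follows describes levels array by array and names no gene as changed.

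A count by pairs of arrays was made beside the test. In 54 genes all 4 differences between an HP1βKO and an HP1αKO array had 1 direction and were at least 1.5-fold, 16 higher (0.161% of the genes tested) and 38 lower (0.382%) in HP1βKO. At any size, the 2 groups did not overlap for 928 genes higher (9.33%) and 1422 genes lower (14.3%) in HP1βKO. The mean difference was above 0 for 4265 of the genes tested (42.9%) and below 0 for 5678. After centring each array on its median the 1.5-fold count was 57, of which 24 were higher and 33 lower, so the excess of lower genes depended on the scaling. With 1 array left out, only 2 pairs have to meet the rule, and the count was 767 without HP1αKO 1, 225 without HP1αKO 2, 160 without HP1βKO 1 and 499 without HP1βKO 2. The WT arrays fell on both sides: of the 16 higher genes WT 1 lay above both HP1αKO arrays for 12 and WT 2 for 3, and of the 38 lower genes WT 1 lay below both HP1αKO arrays for 32 and WT 2 for 3. Both HP1βKO arrays were outside the 2 WT arrays, in the same direction, for 13 of the 16 and 30 of the 38. The HP1αKO mean was under the floor for 8 of the higher genes and the HP1βKO mean for 9 of the lower genes. The size of those differences is thus uncertain. A gene above the floor in only 1 knockout can stand without overlap only as higher in that knockout. Counts for the lists below carry this limit.

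Among the genes higher in HP1βKO, the widest gaps between the groups were those of Cer1 and Cyp26a1. Cer1, a secreted antagonist of Nodal and BMP made by anterior endoderm, lay at 6.93 and 6.99 in HP1βKO and at 5.22 and 5.01 in HP1αKO (1.85 ± 0.69), with WT at 6.57 and 4.21. Cyp26a1, which breaks down retinoic acid, lay at 7.91 and 7.97 against 6.44 and 5.40 (2.02 ± 0.82), with WT at 7.99 and 5.37. In both genes the HP1βKO arrays stood apart from the HP1αKO arrays, and WT 1 stood with or near HP1βKO while WT 2 did not. Fgf5, the classical marker of the epiblast after implantation, lay at 9.80 and 9.13 against 8.19 and 6.99 (1.88 ± 0.87), with WT at 9.11 and 6.42, so that WT alone spanned nearly the whole range.

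Lhx1, a homeobox factor of the anterior streak, lay at 5.67 and 6.34 in HP1βKO and at 4.96 and 4.30 in HP1αKO (1.37 ± 0.61). Sox17, which directs endoderm, lay at 5.64 and 5.30 against 4.61 and 4.18 (1.08 ± 0.27), with the lower HP1βKO array just under the floor. Flt1, which encodes a VEGF receptor, lay at 7.04 and 6.68 against 5.75 and 4.65 (1.66 ± 0.50). For all 3 genes WT 1 was the higher WT array, and for Sox17 and Flt1 it stayed below both HP1βKO arrays. The membrane-bound carbonic anhydrase Car4 lay at 8.82 and 8.45 against 7.30 and 5.45 (2.26 ± 0.58), with WT at 7.34 and 6.75, and Car14, another membrane-bound carbonic anhydrase, at 7.81 and 7.06 against 6.29 and 5.81 (1.38 ± 0.60).

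Cytoskeletal genes were also among them. Krt18, a keratin of simple epithelia, lay at 9.66 and 8.55 in HP1βKO against 7.63 and 7.90 in HP1αKO and 7.89 and 7.85 in WT (1.34 ± 0.36). Its partner keratin Krt8 lay at 10.55 and 9.26 against 8.92 and 8.51 (1.19 ± 0.44), with WT at 9.16 and 8.63. For both keratins HP1βKO 1 was far above HP1βKO 2, and both HP1βKO arrays were above all 4 others. Nefl, the neurofilament light chain, lay at 8.64 and 8.17 against 7.50 and 6.88 (1.22 ± 0.48), and Nefm, the medium chain, at 6.68 and 5.44 against 4.90 and 3.83 (1.69 ± 0.54), again above both WT arrays. The formin Fmnl2 lay at 7.73 and 7.71 against 6.98 and 7.05 (0.70 ± 0.33), with WT 1 at 7.59. The remaining genes named by the width of the gap were Stxbp6, a syntaxin-binding protein gene, at 6.28 and 6.02 against 4.93 and 4.97 (1.20 ± 0.27), Klhl4 at 7.10 and 6.21 against 5.21 and 5.39 (1.36 ± 0.63) and the zinc finger gene Zfp951 at 5.08 and 5.87 against 4.18 and 3.81 (1.48 ± 0.32), where only 1 array of the 4 was above the floor.

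The genes lower in HP1βKO included several known from germ cells and the early embryo. Usp26, an X-linked ubiquitin-specific protease gene expressed in testis, had the widest gap: it lay at 3.10 and 3.50 in HP1βKO, below the floor, and at 8.49 and 6.80 in HP1αKO, with WT at 4.42 and 8.94 (−4.34 ± 1.38). WT 1 was thus close to HP1βKO and WT 2 close to HP1αKO 1. Dppa3, a maternal factor that guards DNA methylation and marks naive ESCs and germ cells, lay at 4.72 and 4.71 against 6.35 and 6.31 (−1.61 ± 0.44), with WT at 5.48 and 6.91. Its replicates were nearly equal within each knockout, and the HP1βKO signals were below the floor. Tdrd12, a tudor protein of the piRNA pathway, lay at 7.35 and 8.17 against 9.27 and 9.08 (−1.42 ± 0.44), and Khdc3, a component of the maternal complex of the oocyte, at 3.90 and 4.14 against 5.32 and 5.52 (−1.40 ± 0.54). Trap1a, an X-linked tumour rejection antigen, lay at 5.33 and 5.78 against 6.77 and 6.93 (−1.29 ± 0.29).

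Ifitm3, an interferon-inducible membrane protein that restricts viruses and is also expressed in ESCs and germ cells, had an unadjusted p of 1.3e-04. It lay at 8.22 and 8.23 in HP1βKO against 10.04 and 9.68 in HP1αKO and 9.78 and 9.77 in WT (−1.64 ± 0.20), so that the 4 other arrays stood within a narrow band well above both HP1βKO arrays. Its neighbours in the family were lower too: Ifitm1 lay at 9.83 and 10.28 against 11.05 and 10.98, and Ifitm2 at 9.52 and 9.50 against 9.89 and 10.17. Aim2, a sensor of cytosolic DNA, lay at 5.49 and 6.25 against 7.46 and 7.74 (−1.72 ± 0.54), with WT at 6.10 and 7.70. Inpp5d, the lipid phosphatase SHIP, lay at 6.23 and 6.48 against 7.56 and 8.26 (−1.56 ± 0.81), Septin1 at 6.25 and 6.49 against 7.50 and 8.27 (−1.52 ± 0.53), and the G protein subunit Gna14 at 4.38 and 4.70 against 5.74 and 6.46 (−1.56 ± 0.42). WT 1 stood with HP1βKO for Inpp5d, with 6.26, and apart from it for Gna14, with 5.74.

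Imprinted genes and a myosin gene completed the list. Grb10, an imprinted adaptor that restrains insulin and growth factor receptors, lay at 7.27 and 7.52 in HP1βKO against 9.72 and 8.59 in HP1αKO and 9.71 and 8.99 in WT (−1.76 ± 0.42). Sfmbt2, an imprinted Polycomb-group gene, lay at 5.72 and 6.43 against 7.26 and 7.57 in HP1αKO and 7.60 and 7.04 in WT (−1.34 ± 0.32). For both of these genes HP1βKO lay below all 4 other ESC arrays. Mylpf, a myosin light chain, lay at 5.76 and 5.70 against 6.67 and 6.82 (−1.02 ± 0.24). Against HP1αKO 1 alone the differences of the 28 named genes, whose direction the choice of genes fixes, ran from 0.74 for Fmnl2 to 1.74 for Cer1 among the higher genes, and from −0.95 for Mylpf to −5.19 for Usp26 among the lower.

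**Figure D2:**
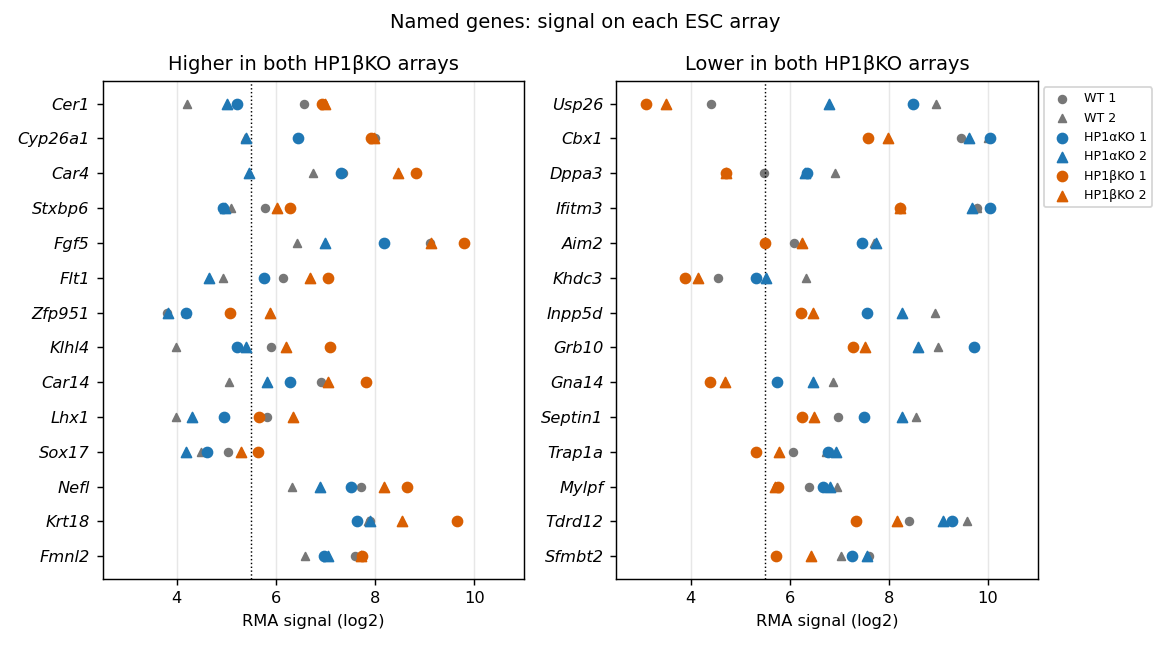
RMA signal (log2, horizontal axis) of the 14 genes with the widest gap in each direction, on each ESC array (circles replicate 1, triangles replicate 2; grey WT, blue HP1αKO, orange HP1βKO; dotted line the floor of 5.49). The orange and blue symbols do not overlap by the choice of the genes, while the grey WT circle often stood near HP1βKO and the grey WT triangle near HP1αKO.

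Genes of the amino acid response were mostly lower in HP1βKO. This response is run by the transcription factor ATF4, which raises genes for amino acid synthesis, transport and tRNA charging when amino acids run short. Of 23 genes tested, 0 passed, 7 had an unadjusted p under 0.05 and 19 had a difference below 0. Ddit3 and Nupr1, both lower, passed the floor only in HP1αKO. The HP1βKO and HP1αKO arrays did not overlap for 18 that were lower, 78.3% of the list against 14.3% of all genes tested, and for 1 that was higher, and for 15 both HP1βKO arrays were also below both WT arrays. Over all genes tested, both HP1βKO arrays were below the 4 other ESC arrays for 5.52% and above them for 4.24%. The median difference of the list was −0.38, against −0.03 over all genes, with −0.43 for replicate 1, −0.17 for replicate 2 and −0.40 against HP1αKO 1 alone. The mean level of the list was 8.04 and 8.17 in HP1βKO, 8.54 and 8.31 in HP1αKO and 8.51 and 8.45 in WT. It did not follow the replicate number as the mean of the feeder markers did.

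Atf4 itself lay at 7.05 and 7.43 in HP1βKO, 7.98 and 8.15 in HP1αKO and 7.99 and 8.61 in WT (−0.82 ± 0.27). Slc7a1, a carrier of cationic amino acids, lay at 6.87 and 7.33 against 8.04 and 7.93 (−0.88 ± 0.22), and was the member that also met the 1.5-fold rule. Both genes were lower in HP1βKO than on any of the other 4 arrays. Cth, which makes cysteine from cystathionine, lay at 7.83 and 8.14 against 9.03 and 8.57 (−0.82 ± 0.23), and Trib3, a pseudokinase that feeds back on ATF4, at 6.23 and 7.05 against 7.79 and 7.20 (−0.85 ± 0.33). Asns, asparagine synthetase, lay at 11.01 and 11.14 against 11.40 and 11.91 (−0.58 ± 0.24), Psat1, of serine synthesis, at 10.51 and 10.52 against 10.94 and 10.84 (−0.37 ± 0.17), and Nupr1, a small stress-induced chromatin protein, at 4.94 and 5.03 against 5.94 and 5.56 (−0.77 ± 0.27). Of the 4 members with a difference above 0, Atf3, a stress factor of the same family, was higher without overlap, at 6.85 and 5.79 against 5.51 and 5.41 (0.86 ± 0.39). The groups overlapped for the other 3, Slc7a3, another carrier of cationic amino acids (0.29 ± 0.33), the C/EBP factor gene Cebpb (0.29 ± 0.34) and Sesn2, which encodes a leucine sensor (0.11 ± 0.28). In EBs the median difference of these genes was −0.21, with −1.22 for Atf4, whose difference between the states did not pass (adjusted p = 0.719).

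The promoters of these genes were searched for the element ATF4 binds together with C/EBP factors, written TGATGNAA, on both strands. RefSeq windows from 250 bases before to 50 after the start site (GRCm38.p6) were at hand for 19 of the 23 genes. The element stood in a window of 7 of them, Asns, Atf3, Chac1, Gars, Nupr1, Trib3 and Vldlr, whereas 3.97% of all 32851 windows and 4.51% of all genes with a window held it. Of the 7, 5 were lower in HP1βKO without overlap, and so were 10 of the 12 whose windows held no match. A match is a string of letters and not a bound site. The 150 bases before the start site are shown for 3 members that were lower and for Atf3, which was higher, to let the element be compared, 5′ to 3′ on the strand of the gene with the match in capitals:
Asns (chr6:7693210-7693359, minus strand): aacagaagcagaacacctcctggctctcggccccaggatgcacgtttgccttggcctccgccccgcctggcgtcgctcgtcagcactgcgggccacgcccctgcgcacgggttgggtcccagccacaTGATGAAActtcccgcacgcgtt
Gars (chr6:55037851-55038000, plus strand): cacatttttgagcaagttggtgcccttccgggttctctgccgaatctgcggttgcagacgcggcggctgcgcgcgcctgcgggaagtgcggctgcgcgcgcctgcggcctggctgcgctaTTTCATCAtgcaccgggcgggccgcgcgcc
Nupr1 (chr7:126625471-126625620, minus strand): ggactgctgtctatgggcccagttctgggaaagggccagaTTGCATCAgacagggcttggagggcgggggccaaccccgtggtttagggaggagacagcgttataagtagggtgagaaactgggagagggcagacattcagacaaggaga
Atf3 (chr1:191183334-191183483, minus strand): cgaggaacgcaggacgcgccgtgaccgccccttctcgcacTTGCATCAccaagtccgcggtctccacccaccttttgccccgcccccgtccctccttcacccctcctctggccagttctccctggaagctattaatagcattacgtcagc

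The match began 23 bases before the start site in Asns, 30 in Gars and 110 in both Nupr1 and Atf3, and it ran on the strand of the gene in Asns and on the opposite strand in the other 3. Nupr1 and Atf3 held the same 8 letters at the same distance and stood on opposite sides, at −0.77 and 0.86.

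**Figure D3:**
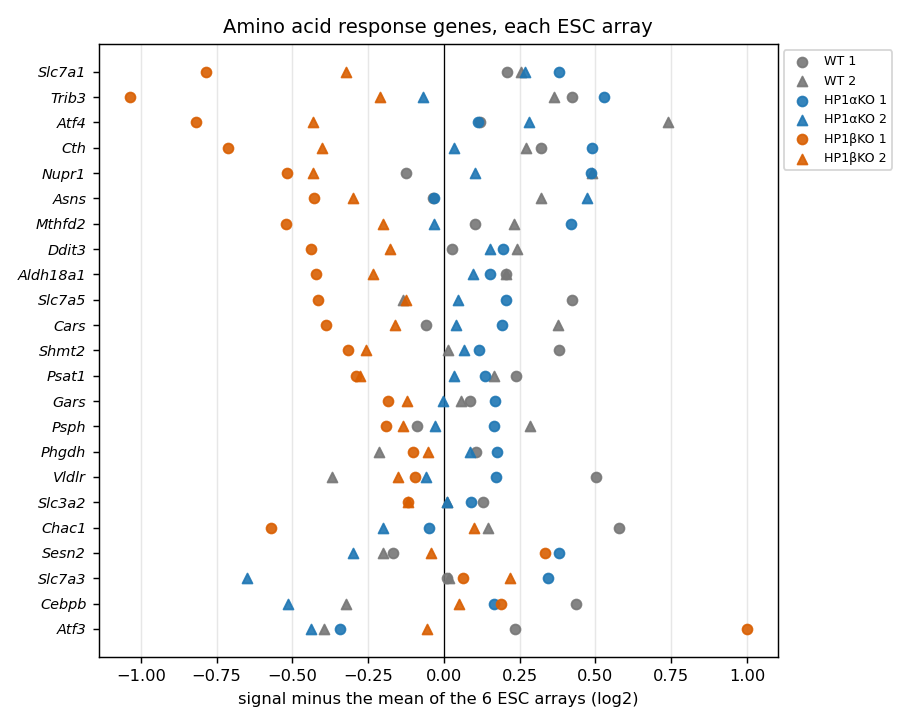
Signal of the 23 amino acid response genes on each ESC array minus the mean of the 6 ESC arrays (log2, horizontal axis; circles replicate 1, triangles replicate 2; grey WT, blue HP1αKO, orange HP1βKO), ordered by the difference between the knockouts. Both orange symbols lay left of both blue symbols for 18 genes and left of all 4 others for 15, with Atf3 at the opposite end.

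Genes of naive pluripotency were lower in HP1βKO in 17 of 18 cases, and 0 passed. Their median difference was −0.46, with −0.52 for replicate 1 and −0.56 for replicate 2, and −0.24 against HP1αKO 1 alone. The groups did not overlap for 7, all lower (38.9% of the list against 14.3% of all genes tested). For 2 of these, Dppa3 and Nr5a2, every pair differed by at least 1.5-fold. Dppa3 and Prdm14 passed the floor only in HP1αKO. Nr5a2, an orphan receptor that maintains Pou5f1, lay at 6.54 and 6.90 against 7.90 and 7.60 in HP1αKO (−1.03 ± 0.48), but WT 1 was lower still, at 6.34. Tfcp2l1, a target of LIF signalling, lay at 7.38 and 7.84 against 7.96 and 9.68 (−1.21 ± 0.61), and Esrrb at 8.26 and 9.07 against 8.90 and 9.64 (−0.60 ± 0.54). Tbx3 was the exception, at 7.20 and 7.40 against 6.42 and 7.79. The mean levels of the list were 7.76 and 8.82 in WT, 8.10 and 8.64 in HP1αKO and 7.61 and 8.04 in HP1βKO, so that WT 1 lay between the HP1βKO arrays and WT 2 above all others.

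The core pluripotency factors were divided in direction. Of 14 genes, 6 were higher and 8 lower in HP1βKO, with a median difference of −0.03, that of all genes. Pou5f1, which encodes Oct4, lay at 11.27 and 11.31 against 11.35 and 11.26 (−0.01 ± 0.17), and Nanog at 10.44 and 10.46 against 10.41 and 11.01 (−0.26 ± 0.32). Sox2 lay at 10.63 and 10.77 against 10.82 and 11.10 (−0.26 ± 0.24). Gdf3, a growth factor of the TGFβ family made by pluripotent cells, was the member furthest from 0, at 8.22 and 8.77 against 9.52 and 9.05 (−0.79 ± 0.28), below both WT arrays as well. Whether naive and core genes differ from each other was not tested.

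Germline-linked genes were mostly lower as well. Of 21 listed, 10 lay above the floor on at least 1 of the 4 knockout ESC arrays, and 9 of these were lower in HP1βKO. The groups did not overlap for 6, again all lower, or 60.0% against 14.3% over all genes. The median was −0.79, and −0.46 against HP1αKO 1. Dazl, Mov10l1 and Piwil2 passed the floor only on HP1αKO 2, so the filter favoured a lower difference for them. Ddx4, the germ cell RNA helicase Vasa, lay at 4.58 and 5.90 against 6.26 and 6.89 (−1.34 ± 0.54). Dnd1, an RNA-binding protein of germ cells, lay at 4.99 and 5.56 against 6.07 and 6.14 (−0.83 ± 0.30), and Prdm1, which sets the germ cell fate, at 5.76 and 5.71 against 6.37 and 6.61 (−0.76 ± 0.25). Several of these signals stood near the floor, and the mean level in WT spanned 5.67 to 7.05.

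Formative and primed genes had the opposite sign in 16 of 18 cases, with no overlap for 8, all higher in HP1βKO (44.4% of the list against 9.33% of all genes tested), and 0 passed. Their median difference of 0.57 came mainly from 1 array, since it was 1.05 for replicate 2, 0.19 for replicate 1 and 0.05 against HP1αKO 1 alone. The mean level of the list was 8.29 and 8.14 in HP1βKO, 8.11 in HP1αKO 1, 7.14 in HP1αKO 2, and 8.06 and 7.32 in WT, so that HP1αKO 2 and WT 2 were the 2 low arrays. Otx2, which drives the exit from the naive state, lay at 9.43 and 9.96 against 8.98 and 8.12 (1.15 ± 0.34), and both HP1βKO arrays were also above WT, at 8.57 and 8.88. Fgf15 lay at 8.76 and 8.68 against 8.44 and 7.02 (0.99 ± 0.45), with WT at 7.36 and 7.70. Otx2 and Fgf15 thus set HP1βKO apart from WT as well as from HP1αKO. For the list as a whole, in contrast, HP1αKO 1 and WT 1 stood with HP1βKO. Sall2, among the 8 without overlap, passed the floor only in HP1βKO.

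Genes of the first lineages were higher in HP1βKO in most cases. For the primitive streak and early mesoderm, 9 of 10 genes tested were higher. The groups did not overlap for 5 of the 10, all higher, against 9.33% over all genes. The median was 0.57, and 0.18 against HP1αKO 1. Of these 5, Lhx1 and Hand1 passed the floor only in HP1βKO, so the filter favoured a higher difference for them. Eomes, a T-box factor of the streak, lay at 8.43 and 7.14 against 7.01 and 5.16 (1.70 ± 1.02), and Gsc, of the organizer, at 6.55 and 6.77 against 5.98 and 5.40 (0.97 ± 0.55), with WT 1 above HP1βKO for Gsc, at 7.03. For definitive and extraembryonic endoderm, 12 of 13 were higher and 7 did not overlap, all higher and 53.8% of the list. The median was 0.50, and 0.30 against HP1αKO 1. Cer1, Gata4, Sox17 and Dab2 passed the floor only in HP1βKO, so the filter favoured a higher difference for them. Gata6, which specifies primitive endoderm, lay at 6.07 and 6.36 against 5.37 and 5.57 and WT at 5.57 and 5.61 (0.74 ± 0.20). Cxcr4, a chemokine receptor of definitive endoderm, lay at 6.80 and 7.31 against 6.13 and 6.32 (0.83 ± 0.36). Only 4 of 17 neural progenitor genes were above the floor, all 4 higher, led by Nes, which encodes nestin, at 8.89 and 7.87 against 7.35 and 7.08 (1.16 ± 0.53). Dkk1, a secreted inhibitor of Wnt signalling, lay at 6.10 and 5.30 against 4.95 and 4.45 (1.00 ± 0.36).

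The trophectoderm list, which holds the keratins, had 7 of 10 genes higher and 3 lower (median 0.36), while its defining factor Cdx2 lay under the floor on 3 of the 4 arrays. Of 14 epithelial and mesenchymal genes 11 were higher (median 0.25). For 5 the groups did not overlap, all higher, or 35.7% against 9.33% of all genes. Of 14 actomyosin genes 11 were higher (median 0.39, and 0.11 against HP1αKO 1). Only 1 was higher without overlap, 7.14% against 9.33% of all genes. Feeder fibroblast markers had 5 of 14 higher and 9 lower, with a median of −0.19 and, against HP1αKO 1 alone, −0.49. Only 1 was lower without overlap, 7.14% against 14.3% of all genes. No lineage list had a member that passed the test, and the endoderm and streak genes named here included several close to the floor.

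Of 12 interferon and antigen presentation genes, 10 were lower in HP1βKO and 5 did not overlap, all lower and 41.7% of the list against 14.3% of all genes (median −0.42; −0.58 against HP1αKO 1). The 3 Ifitm genes above had the widest gaps between the groups, and for 4 of its genes both HP1βKO arrays were below all 4 other ESC arrays. Its mean level was 7.25 and 7.26 in HP1βKO, 7.82 and 7.53 in HP1αKO and 7.64 and 7.59 in WT. Of 18 imprinted genes 14 were higher and 4 lower (median 0.37). In each direction 3 did not overlap, or 16.7% of the list, against 9.33% higher and 14.3% lower over all genes. Cdkn1c, a brake on the cell cycle, lay with Grb10 on the low side, at 7.97 and 7.50 against 8.79 and 8.50 (−0.91 ± 0.43). Dlk1, a Notch ligand relative expressed from the paternal allele, lay at 6.17 and 6.13 against 5.71 and 5.10 (0.74 ± 0.29), while Meg3 of the same domain had the difference of 2.12 ± 1.497 that rested on HP1αKO 1.

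Most other lists had medians closer to 0. Of 25 kinetochore and mitosis genes 20 were lower, but the median was −0.11. Glycolysis and hypoxia genes had a median of −0.07 over 26 genes, with 0.17 for replicate 1 and −0.45 for replicate 2, and p53 targets −0.10 over 17 genes, with 0.29 and −0.37, so both turned sign with the replicate. Heterochromatin and DNA methylation genes had a median of −0.05 over 23 genes, and the 1 with an unadjusted p under 0.05 was Mbd1, a methyl-CpG binding protein, at 6.92 and 6.87 against 6.48 and 6.45 (0.43 ± 0.17). In the Nodal and BMP list, 8 of 14 were higher (median 0.04; −0.49 against HP1αKO 1), and Bmp4 was the member that met the 1.5-fold rule, at 6.62 and 6.76 against 7.37 and 7.36 (−0.67 ± 0.26). Of the FGF and ERK genes 11 of 17 were higher (median 0.12) and of the Wnt genes 8 of 12 (median 0.06). Of the zinc finger genes of recent clusters 9 of 20 were higher (median −0.05) and of the G1 and S phase genes 7 of 18 (median −0.12). Of the neuronal genes 4 of 9 were higher (median −0.31, but 0.54 with a floor of 100). Stmn2, Elavl3, Ncam1 and Rtn1 were lower without overlap, 44.4% of the neuronal list against 14.3% of all genes. Nefl and Nefm were higher without overlap, 22.2% against 9.33%. Of these, Elavl3 and Ncam1 passed the floor only on HP1αKO 2 and Nefm only on HP1βKO 1, so the filter favoured their direction. Of 37 Hox genes 0 and 1 of 10 genes of the totipotent-like state lay above the floor on a knockout ESC array.

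**Figure D4:**
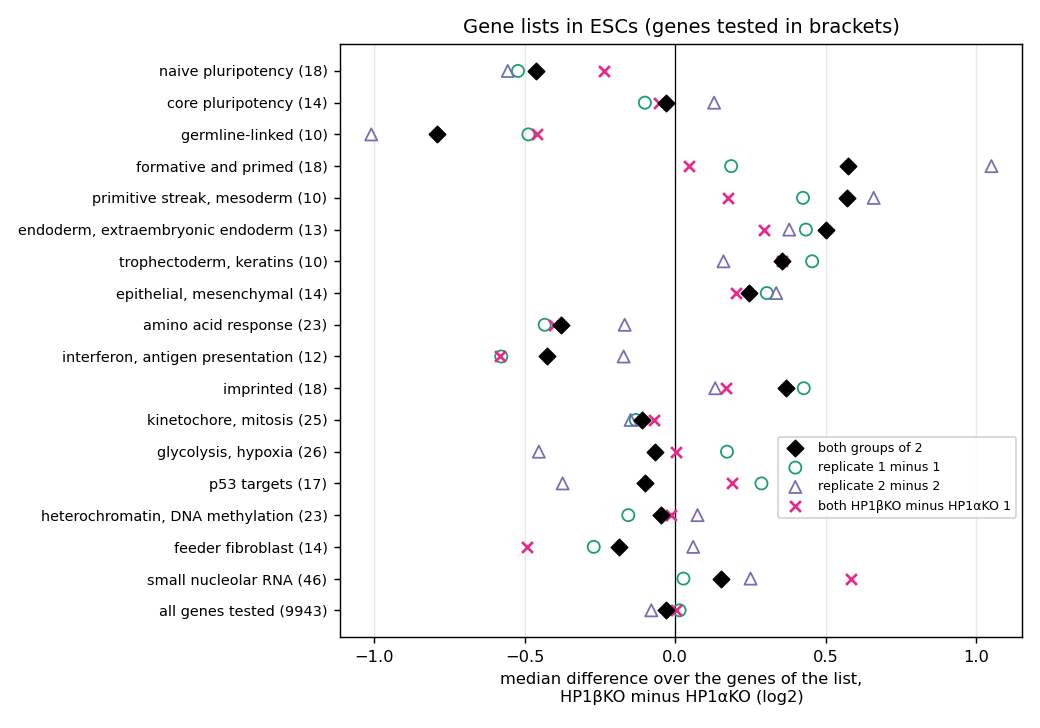
Median difference over the tested genes of each list, HP1βKO minus HP1αKO in ESCs (log2, horizontal axis): black diamonds, both groups of 2 arrays; circles, replicate 1 minus 1; triangles, replicate 2 minus 2; crosses, both HP1βKO arrays minus HP1αKO 1. The naive, germline, amino acid and interferon lists lay left of 0 by all 4 readings, and the formative list lay right of 0 with a cross close to 0.

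The same contrast was then read in EBs. The difference between the knockouts differed between EBs and ESCs for 214 of 10755 genes (1.99%) in limma on all 12 arrays, with 68 higher and 146 lower in EBs relative to ESCs. The count fell to 140 without HP1βKO 1 of the ESCs, to 99 and 95 without HP1αKO 1 or 2 of the EBs, and to 115 without either HP1βKO array of the EBs, where the lone array is taken to vary like the other groups. Among the 54 genes that met the 1.5-fold rule in ESCs, 9 passed this test, 4 of the higher and 5 of the lower. These genes were chosen for their ESC difference, which enters the test, so this count is a description only. The EB difference had the sign of the ESC difference for 3 of the 16 higher and 13 of the 38 lower genes. The share with equal sign over all genes was not counted, so no direction is read from it. Cbx1 was low in HP1βKO in both states (EB difference −1.95, state difference 0.10 ± 0.30, adjusted p = 0.950).

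The core pluripotency genes had a median difference of −0.03 in ESCs and of 0.87 in EBs. Pou5f1 had an EB difference of 2.53 (state difference 2.55 ± 0.20, adjusted p = 3.2e-04) and Nanog 2.496 (adjusted p = 0.00470), whereas Otx2 turned from 1.15 in ESCs to −3.14 in EBs (adjusted p = 6.4e-04). Sox2 went the other way from Pou5f1, with an EB difference of −1.60 (adjusted p = 0.0437). In EBs, Pou5f1 lay at 8.81 and 8.51 in HP1βKO, 6.11 and 6.15 in HP1αKO and 7.19 and 7.46 in WT. Sox2 lay at 8.52 and 8.22 in HP1βKO, 9.98 and 9.95 in HP1αKO and 8.83 and 9.09 in WT. For both genes WT EBs thus stood between the knockouts. Gdf3, lower in HP1βKO ESCs, was higher in HP1βKO EBs by 1.93 (adjusted p = 0.00333). The naive list had medians of −0.46 in ESCs and 0.59 in EBs, and the germline list −0.79 and 0.40. Naive genes were thus lower in HP1βKO ESCs and higher in HP1βKO EBs by median, and the formative list had 0.57 and −0.18. The naive list averaged 6.43 and 6.30 in HP1βKO EBs and 5.48 and 5.47, just under the floor, in HP1αKO EBs. The germline list averaged under the floor in all these EBs, at 4.94 and 4.95 in HP1βKO and 4.67 and 4.70 in HP1αKO. Its EB median therefore rests on weak signals and gives no direction. The 2 contrasts use different arrays, but the test of the state difference also carries the wide spread of the ESC replicates.

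**Figure D5:**
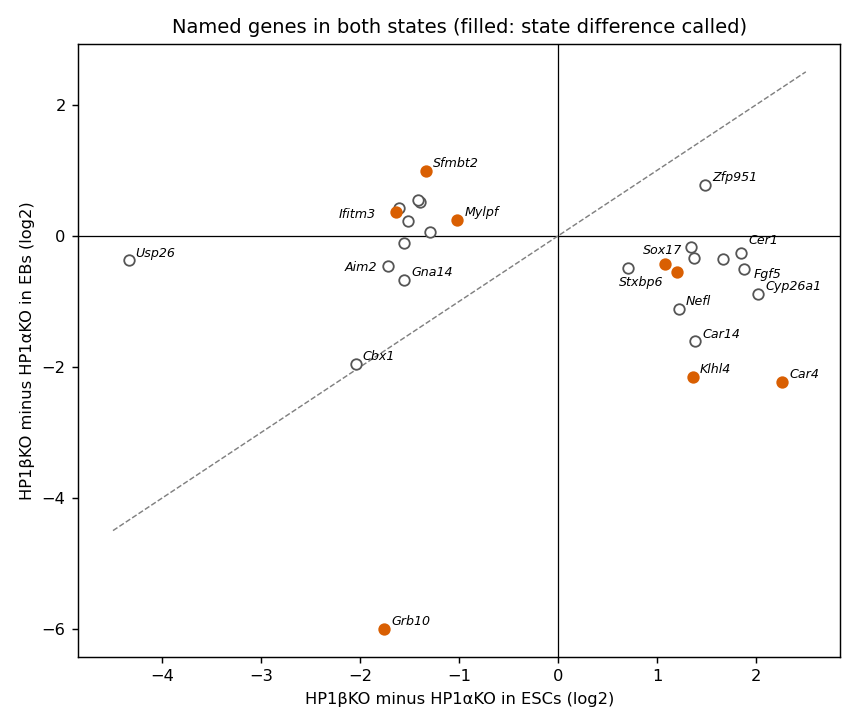
Difference between HP1βKO and HP1αKO (log2) in ESCs (horizontal axis) and in EBs (vertical axis) for the 28 named genes, with filled symbols where the difference between the states passed (adjusted p under 0.05) and a dashed line where both states would be equal. Cbx1 lay on the line, Grb10 far below it at −1.76 and −6.00, and most higher genes in ESCs lay below 0 in EBs.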

How the data were processed

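The series holds 12 single-channel expression arrays, of which 4 form the comparison, 2 WT ESC arrays share its estimate of spread and 6 EB arrays serve the test between states. The authors processed the arrays with RMA in Affymetrix Expression Console, per the labels, and deposited log2 signals, so that background correction, quantile normalization and summarization preceded deposition. No version is named in the labels or the paper, and its methods name an exon array whereas the feature identifiers are those of the Mouse Gene 1.0 ST array. Quantile normalization gives all arrays 1 distribution, so a general shift of all transcripts would not be seen. Precision is limited by the number of arrays.

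Of 35556 features, 21789 carried 1 symbol, 1621 several and 12146 none, and 21698 were matched to a RefSeq gene table by gene number. The feature with the highest mean was kept per symbol. Genes above 45 on at least 1 of the 4 arrays were fitted with limma 3.58.1 in R 4.3.3 as group means of the 6 ESC arrays with empirical Bayes moderation, two-sided, adjusted by Benjamini-Hochberg at 0.05. The difference between states was fitted on all 12 arrays over genes above 45 on at least 1 of the 8 knockout arrays. The rule of 1.5-fold in all 4 pairs is a reading of the methods, which name pairwise comparisons. The code was tested on simulated data. The methods speak of biological samples without saying whether these were separate cultures, so p-values measure the spread between these arrays, which may be technical.

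Named genes were up to 14 per direction without overlap, those passing the test first and then by the smallest of the 4 pairwise differences, leaving out locus numbers and small RNAs, plus Cbx1, Cbx3, Cbx5, Hprt, Meg3, Xist, which lay under the floor, and list members. Of 29 lists, 28 had a gene tested, with 402 genes in all. The comparison, lists, rules and alternatives were chosen with earlier results of these data known, and lists get counts and medians only. Alternatives were the arrays in the fit, the replicate number as a block, the floor, the features of a symbol, centring, moderation and leaving out each array.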

Additional observations from a re-analysis of the deposited data

Results flagged for a closer look

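8 of the 28 named genes had a difference between HP1βKO and HP1αKO that itself differed between EBs and ESCs in limma on all 12 arrays, given here as the EB minus the ESC difference (log2). Of those higher in HP1βKO ESCs, Car4 differed by −4.49 ± 0.69 (adjusted p = 0.00987), Klhl4 by −3.51 ± 0.73, Stxbp6 by −1.75 ± 0.29 and Sox17 by −1.52 ± 0.30, and each of these 4 was lower in HP1βKO EBs. Car4 lay at 7.59 and 7.13 in HP1βKO EBs and at 9.67 and 9.51 in HP1αKO EBs. Of those lower in HP1βKO ESCs, Ifitm3 differed by 1.99 ± 0.31, Sfmbt2 by 2.33 ± 0.35 and Mylpf by 1.26 ± 0.27. Sfmbt2 was higher in HP1βKO EBs, at 6.36 and 6.34 against 5.34 and 5.37, under the floor, in HP1αKO EBs. Ifitm3 overlapped in EBs, at 8.16 and 7.54 against 7.66 and 7.33. Mylpf lay under the floor in all these EBs, at 5.18 and 5.11 against 4.99 and 4.82. Grb10 differed by −4.24 ± 0.49: it was lower in HP1βKO in both states and lay at 5.69 and 5.35 in HP1βKO EBs against 11.52 and 11.53 in HP1αKO EBs. The ESC differences of these genes were chosen for their gap, which enters this test, so its p-values are a description for them.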

How the results depend on the processing

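The count of 0 genes called between the knockouts held with the 4 knockout arrays alone, with another floor, averaged features, centring, trend, robust moderation, array weights and each library left out (range 0 to 0), where a lone array of a genotype is taken to vary like the other groups. It became 1 with all 12 arrays (Cbx1). ESC samples with the same number deviated together (correlations of replicate differences 0.398, 0.512 and 0.305 over genes for 3 pairs of groups), but with 2 numbers this does not show a pairing. With the replicate number as a block the count was 0 on the 6 ESC arrays (lowest adjusted p 0.315, 518 genes at an unadjusted p under 0.05), 1 on the 4 knockout arrays (Usp26) and, in a fit of all 12 arrays chosen after seeing the data, 62, with 27 higher and 35 lower. That last fit takes most of its spread from EB replicates, which vary less. The 54 genes 1.5-fold in all pairs became 6 at 2.5-fold, 174 over same-number pairs only and 160 to 767 with 1 library left out, where fewer pairs have to meet the rule. Without HP1αKO 2, whose Cbx5 opposed its label, the count was 225, with 105 higher and 120 lower. The 214 genes that differed between states became 679 with the replicate block within ESCs, 135 with a floor of 100 and 95 to 290 with 1 library left out (140 without HP1βKO 1 of the ESCs, 99 and 95 without either EB HP1αKO array, 115 without either EB HP1βKO array). The cause of these changes was not tested.

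Of 1347 values of the difference of 68 genes under 20 settings, 1316 kept direction and side of the threshold, 23 passed it, 21 of them under the block on all 12 arrays, and 8 reversed. With 1 library left out, Cbx5 ran from −0.20 to 1.76, Hprt from −3.79 to 0.36, Tbx3 from −0.49 to 0.88, Pou5f1 from −0.056 to 0.027 and Nanog from −0.56 to 0.035. The reversed values were those without HP1αKO 1 for Cbx5, Hprt, Tbx3 and Pou5f1, without HP1βKO 1 for Pou5f1 (0.0037) and without HP1αKO 2 for Nanog. Nanog was also 0.035 without HP1αKO 2 and WT 2 together, and Pou5f1 was 0.047 with centring. Of 480 medians of 24 lists, 26 in 11 lists had the other sign, among them the feeder fibroblast list (0.50 without HP1αKO 1). The naive, germline, formative, streak, endoderm, amino acid and interferon medians kept their sign under every setting run. A group mean under the floor of 45 leaves the size of the difference uncertain for Hprt, Lox, Cer1, Lhx1, Sox17, Flt1, Nefm, Stxbp6, Klhl4, Zfp951, Usp26, Dppa3, Khdc3, Gna14, Nupr1, Atf3, Ddx4, Dnd1, Gata6, Dkk1, Cdx2 and Dlk1. The same limit applies to Ddit3, Prdm14, Dazl, Mov10l1, Piwil2, Sall2, Gata4, Dab2, Hand1, Elavl3 and Ncam1.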
